A study of Gasterosteus aculeatus with 60 samples.

Results

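Some genes were high in some males and low in others, and alike in separately dissected parts of the same brain. Each male was sampled at a single time, so a lasting level and a passing state cannot be told apart. The 200 genes described here were the ones in which diencephalon and telencephalon of the same male threespined stickleback (Gasterosteus aculeatus) agreed most closely. They were taken from 13602 genes with a mean of 5 or more cpm (read counts scaled to the total of their library) in each region, out of 17536 genes counted. For each gene the mean of every group of region, time and treatment was removed from log2(cpm + 1), and Pearson's r between both regions was computed over 30 fish. Group means were removed first, so r measures only how males of the same group differ from each other. Because these values chose the genes, r and the spread between fish are given as a description and without a test.

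The fish were adult wild-caught males of a freshwater population, all defending a nesting territory. Challenged males faced an intruder, a smaller male held in a flask, while the flask given to control males held no fish. Brains were collected 30, 60 and 120 minutes after the start of the trial, from 5 challenged and 5 control males at each time. Each male gave 1 library of poly-A RNA per region, so 60 libraries in 12 groups were used, and a group is 5 different wild males rather than an inbred line.

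The telencephalon of a fish is the forebrain region that takes part in social and spatial behaviour, and the diencephalon holds the hypothalamus and links the brain to hormone release. Expression of a gene can differ between individuals of a wild population for many reasons, among them inherited differences in or near the gene, infection, age and condition. Such differences are background to an experiment with different animals in each group, since a difference between groups is judged against the spread between animals. RNA was taken from whole dissected regions, in which fewer cells of a type and less RNA per cell cannot be told apart.

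Library totals ran from 17705327 to 55299804 counts (median 30159568). The 200 genes had at least 162.5 counts per library on average. The summed level of 12 telencephalon markers was 65.5 to 171 cpm in diencephalon and 453 to 1064 cpm in telencephalon, without overlap. The summed level of 11 diencephalon markers, mainly hypothalamic genes, was 103 to 895 cpm in diencephalon, and it overlapped with telencephalon, where the median was 33.1 cpm but the highest library reached 1211 cpm. In 3 fish these markers were higher in telencephalon than in diencephalon, against what the labels imply: fish 9 had 103 cpm in diencephalon and 780 cpm in telencephalon, fish 12 had 259 and 1018 cpm, and fish 38 had 295 and 1211 cpm. The telencephalon markers of these 3 fish were higher in telencephalon than in diencephalon, as labelled. In telencephalon, however, fish 38 (453 cpm) and fish 9 (611 cpm) had the lowest sums of all fish, against a median of 919 cpm, and fish 12 had 880 cpm. The sum of 17 midbrain and hindbrain markers in telencephalon was 48.7, 25.3 and 34.4 cpm in fish 9, 12 and 38. Its median was 11.3 cpm, and fish 1 had 42.6 cpm. Other telencephalon libraries also lay well above the median of 33.1 cpm in the diencephalon markers. Among them, fish 13 had 433 cpm, fish 5 had 218 cpm, fish 15 had 189 cpm and fish 10 had 114 cpm. These fish were kept when fish 9, 12 and 38 were left out. The part of mixed tissue or of these markers in the results was not tested. Without fish 9, 12 and 38, a choice made after seeing the data, 176 of the 200 genes remained among the first 200. Of the named genes, CMKLR1 (2 of 2), cpvl (1 of 2), socs7, TNFRSF14, irg1, zgc:194336, phpt1, trim13, nop16 (1 of 4) and MLXIPL did not. With group means removed, the libraries were also compared on the 13402 other genes. In these deviations 28 of 30 diencephalon libraries resembled the telencephalon of their own fish more than that of any other fish. Likewise, 29 of 30 telencephalon libraries resembled the diencephalon of their own fish most. The means of each region were removed too, so this does not check the region labels.

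Agreement between the regions was common, and the 200 genes were its upper end. Over all 13602 genes the median r was 0.542, and r was above 0 for 13104 of them. The 200 genes ran from 0.999 to 0.948, with a median of 0.970. The 3 genes just inside the limit had r of 0.94785, 0.94783 and 0.94763 (MLXIPL, ENSGACG00000002899 and ENSGACG00000002929), and the 3 just outside had 0.94761, 0.94717 and 0.94710 (ENSGACG00000015870, ENSGACG00000007323 and ENSGACG00000019112). The limit therefore marks no break. Without the 2 fish that lay farthest from the median of a gene in diencephalon, the median r of the 200 genes was 0.958, the lowest was 0.795 (trim13), and 6 genes were under 0.9.

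**Figure D1:**
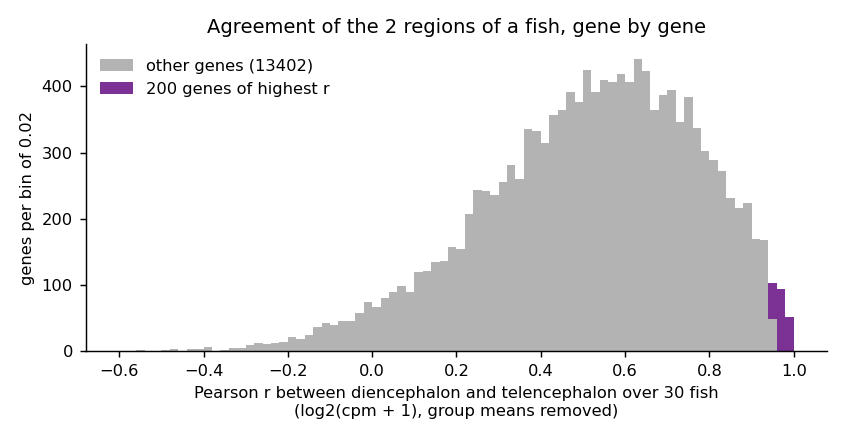
Histogram of Pearson's r between diencephalon and telencephalon over 30 fish, after group means were removed from log2(cpm + 1); the y axis counts genes per bin. Most genes lie above 0 with a median of 0.542, and the 200 genes described (purple) fill the bins at the upper end, from 0.948 to 0.999.

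A gene name was at hand for 32 of the 200 genes and none for 168. The names came from the study's lists of genes, which were selected on these same libraries, and they cover 1143 of the 13602 genes, so the named genes are not a random draw. Of the 10 genes with the highest r 9 had no name, as had 9 of the 10 with the largest spread between fish. The accounts below start with the genes whose fish fell into separate levels and then follow what the named genes do. CGREF1, PCYOX1L, tlr22, TNIP2, CMKLR1 (2 of 2), phpt1, ADCK3 (1 of 2), TMEM236 (2 of 2), TNFRSF14, tmem66 and socs7 were added to the named genes after their values had been seen.

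In many of the 200 genes the levels of the males were set apart by gaps, and the sets of fish between gaps are called bands here. A gap of fixed size can also arise in a wide continuous spread, which was not tested. When the fish were put in order of their mean level over both regions, 110 of the 200 genes (55.0%) had at least 1 gap of 0.5 log2 units or more between neighbouring fish, against 531 of the 13402 other genes (3.96%). In 78 genes the gaps left 2 bands of fish and in 32 genes they left 3 or more. In 108 of the 110 genes the bands were apart in diencephalon and in telencephalon taken singly. The genes were chosen for close agreement of the regions, which favours a wide spread, so these counts are largely set by the choice. In 63 genes every band held at least 3 fish, and in 58 of these every band held both challenged and control fish. These 2 counts were not made for the other genes. With 15 fish of each treatment, most bands of that size would hold both, and a link of bands to treatment was not tested.

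ENSGACG00000002233, the gene with the highest r (0.999), had 3 bands. In 5 fish (1 challenged, 4 control) it stayed between 0.306 and 0.517 cpm in diencephalon and between 0.0820 and 0.604 cpm in telencephalon. In 12 fish (8 challenged, 4 control) it lay between 51.5 and 66.7 cpm in diencephalon and between 44.9 and 64.6 cpm in telencephalon. In the other 13 fish (6 challenged, 7 control) it lay between 104 and 124 cpm in diencephalon and between 95.1 and 139 cpm in telencephalon. No fish was in one band in one region and in another band in the other region.

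ENSGACG00000008242 was nearly absent from 5 fish (4 challenged, 1 control), at no more than 0.158 cpm in diencephalon and 0.143 cpm in telencephalon. In the other 25 fish (11 challenged, 14 control) it was between 8.50 and 38.5 cpm in diencephalon and between 9.37 and 35.0 cpm in telencephalon. In all, 6 of the 200 genes, none of them named, had 3 counts or fewer in both regions of at least 1 fish and 5 cpm or more in both regions of another, and 4 of the 13402 other genes did. Such a pattern is itself a close agreement of the regions, so these counts are largely set by the choice of genes.

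The named gene with the highest r was pnp6 (ENSGACG00000003069), purine nucleoside phosphorylase 6, whose family splits nucleosides in purine salvage. It lies on linkage group XIX, the sex chromosome of this species, at 2607676 to 2619214 on the reverse strand of the Ensembl annotation the study used. In diencephalon its lowest, median and highest levels were 2.27, 32.6 and 41.1 cpm over 15 challenged fish and 1.97, 28.9 and 38.6 cpm over 15 control fish. In telencephalon they were 1.36, 33.3 and 45.5 cpm in challenged fish and 0.728, 29.5 and 39.4 cpm in control fish. The median hides a gap: 8 fish (2 challenged, 6 control) had at most 3.41 cpm in diencephalon, while the other 22 had at least 27.0 cpm. The same 8 fish were the low ones in telencephalon, at most 1.78 cpm against at least 28.6 cpm in the others.

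idh3a (ENSGACG00000010244) encodes the alpha subunit of mitochondrial isocitrate dehydrogenase, an enzyme of the citric acid cycle. It lies on the same linkage group XIX, at 11973704 to 11978272. In 8 fish (3 challenged, 5 control) it was between 19.7 and 30.6 cpm in diencephalon and between 19.2 and 27.2 cpm in telencephalon. In the other 22 fish (12 challenged, 10 control) it was between 64.9 and 83.4 cpm in diencephalon and between 61.9 and 81.3 cpm in telencephalon. Both genes had 8 low fish, and 3 fish were low in both. With group means removed, r between idh3a and pnp6 was -0.13 over 30 fish, on the mean of both regions.

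CGREF1, a secreted protein with calcium-binding EF-hands, showed 3 levels. Fish 10, a control male of 120 minutes, had 1.97 cpm in diencephalon and 1.82 cpm in telencephalon. In 10 fish (4 challenged, 6 control) the gene was between 21.9 and 30.1 cpm in diencephalon and between 19.3 and 27.5 cpm in telencephalon. In 19 fish (11 challenged, 8 control) it was between 45.8 and 61.4 cpm in diencephalon and between 36.2 and 49.2 cpm in telencephalon. PCYOX1L, a relative of the enzyme that breaks down prenylated cysteines, was instead high in a few: 6 fish (2 challenged, 4 control) had 155 to 172 cpm in diencephalon, and the other 24 had 32.2 to 44.9 cpm. In telencephalon the same 6 fish had 149 to 166 cpm and the other 24 had 34.7 to 62.7 cpm.

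**Figure D2:**
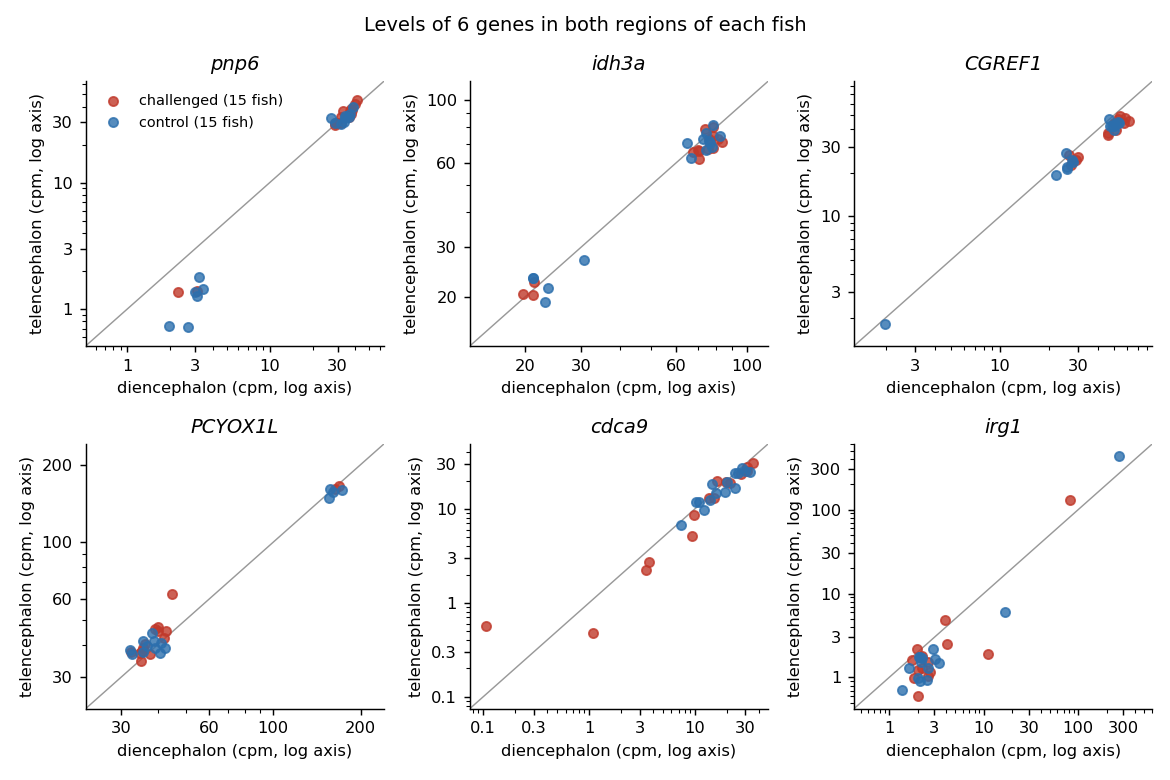
Levels of 6 genes in cpm on log axes, with diencephalon on the x axis and telencephalon on the y axis; each point is 1 fish, red for the 15 challenged and blue for the 15 control males, and the line marks equal levels. Fish form separate clusters in pnp6 (8 and 22 fish), idh3a (8 and 22) and PCYOX1L (24 and 6), challenged and control males occur in each of these clusters, and in irg1 fish 8 stands far above the rest at 271 and 434 cpm.

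Separate levels were also found in other genes of metabolism. Of 18 counted genes in the list of lipid and mitochondrial metabolism, 16 had 5 cpm or more in each region and 3 were among the 200: idh3a, slc25a1a and MLXIPL. slc25a1a encodes the carrier that exports citrate from mitochondria. It had 147 to 185 cpm in diencephalon of 4 fish (3 challenged, 1 control), while the other 26 (12 challenged, 14 control) had 49.5 to 82.5 cpm, and in telencephalon the same fish had 137 to 149 cpm and 42.0 to 61.5 cpm. MLXIPL encodes ChREBP, a transcription factor that responds to sugar and switches on fat synthesis in mammals. In diencephalon it had 12.4 to 21.7 cpm in 10 fish (3 challenged, 7 control) and 4.53 to 10.5 cpm in the other 20. In telencephalon the same 10 fish had 10.5 to 18.8 cpm and the other 20 had 2.36 to 5.92 cpm. ADCK3 (1 of 2), a kinase-like protein of coenzyme Q synthesis that is not in that list, had 4.72 to 8.91 cpm in diencephalon of 21 fish and at least 23.8 cpm in the other 9.

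Complement C3, the central protein of the complement cascade, was represented by 2 of the 3 genes of that list with 5 cpm or more in each region. C3 (1 of 8) lies on scaffold 251 and C3 (8 of 8) on linkage group IX. In C3 (8 of 8), fish 36 (challenged, 60 minutes) had 0.729 cpm in diencephalon and 1.52 cpm in telencephalon. In 8 fish (4 challenged, 4 control) it was between 4.61 and 5.70 cpm in diencephalon and between 3.45 and 5.80 cpm in telencephalon. In 21 fish (10 challenged, 11 control) it was between 21.3 and 50.8 cpm in diencephalon and between 21.9 and 54.5 cpm in telencephalon. C3 (1 of 8) had the same sizes of bands, with 1, 8 and 21 fish. With group means removed, r between both copies over 30 fish was 0.988. The sequences of the copies were not compared here, and whether reads of one copy were counted for the other was not tested, so the split of reads between them is uncertain.

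Several immune genes were high together in 2 males. irg1 encodes the enzyme that makes itaconate in activated macrophages, tlr22 a Toll-like receptor found in fish, and TNIP2 a protein that restrains inflammatory signalling. irg1 reached 271 cpm in diencephalon and 434 cpm in telencephalon of fish 8 (control, 60 minutes). Fish 9 (challenged, 120 minutes) had 82.1 cpm and 129 cpm of irg1 in the same regions, and the other 28 fish had at most 16.9 cpm and 5.98 cpm. tlr22 had 60.1 cpm and 59.9 cpm in fish 8, 40.7 cpm and 41.9 cpm in fish 9, and at most 11.4 cpm and 8.58 cpm in the other fish. CMKLR1 (2 of 2), a receptor of the chemoattractant chemerin on macrophages, was also highest in fish 8 and 9, at 14.0 to 20.1 cpm against at most 10.0 cpm elsewhere. With group means removed, r between fish was 0.912 for irg1 and tlr22 and 0.813 for irg1 and TNIP2.

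The same males had the highest summed level of 19 myeloid markers, genes of macrophages and granulocytes. Fish 8 had 4131 cpm of them in diencephalon and 2033 cpm in telencephalon. Fish 9 had 2648 cpm and 2837 cpm. The median over 30 fish was 363 cpm in diencephalon and 432 cpm in telencephalon, and the next highest fish had 1037 cpm and 957 cpm. All 19 markers were detected in every library and none of them was among the 200 genes, though their median r was 0.868 and irf8 at 0.946 lay just under the limit. The part of myeloid cells in these results was not tested. Without fish 8 and fish 9, a choice made after seeing the data, irg1, tlr22 and CMKLR1 (2 of 2) no longer had 5 cpm on average in each region, TNIP2 had an r of 0.927, cdca9 one of 0.943, MLXIPL one of 0.945 and nop16 (1 of 4) one of 0.944, all under the new limit, and zfyve26 at 0.949 also fell outside. In all, 183 of the 200 genes remained among the first 200.

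cry3, a cryptochrome of the circadian clock, was the 1 gene of 10 in the clock list and lies on linkage group XIX at 1002682 to 1016637. It formed no bands and ran from 12.1 to 45.1 cpm in challenged and from 17.5 to 37.5 cpm in control fish in diencephalon, with medians of 34.9 and 24.0 cpm. In telencephalon it ran from 13.1 to 51.0 cpm in challenged and from 21.9 to 37.2 cpm in control fish, with medians of 37.5 and 26.5 cpm. The ranges overlapped, and on the summed counts the log2 fold change was 0.45 ± 0.24, 0.55 ± 0.24 and 0.04 ± 0.24 at 30, 60 and 120 minutes (SE, adjusted p = 0.687, 0.610 and 0.987 by edgeR, none of them a call). trim13, a ubiquitin ligase of the endoplasmic reticulum, was the 1 gene of 10 in the list of interferon response and TRIM genes. Fish 2 (control, 120 minutes) alone had 183 cpm of trim13 in diencephalon and 229 cpm in telencephalon, and the other 29 fish had 41.7 to 71.1 cpm and 46.5 to 73.1 cpm. No gene of the lists for immediate early genes (17 with 5 cpm or more), glucocorticoid-responsive genes (11) or antigen presentation (9) was among the 200. The 200 are 1.47% of the genes the rule could choose. The median r was 0.264 in the immediate early genes, 0.832 in the glucocorticoid-responsive genes and 0.851 in the antigen presentation genes, against 0.542 over all genes.

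Single fish also set apart several other named genes. Fish 10 had 96.2 cpm of TMEM236 (2 of 2) in diencephalon and 73.1 cpm in telencephalon, and no other fish exceeded 16.4 cpm and 12.3 cpm. Fish 38 (challenged, 30 minutes) had 91.4 cpm and 95.5 cpm of TNFRSF14, a receptor of the tumour necrosis factor family, against at most 52.2 cpm and 54.2 cpm in the others. Fish 23 (challenged, 30 minutes) had 17.3 cpm and 17.6 cpm of tmem66, a regulator of calcium entry, against at least 37.7 cpm and 46.4 cpm. A different fish stood out in each of these genes. Without fish 9, 12 and 38 the r of TNFRSF14 was 0.860. Counting for each of the 200 genes the fish farthest from its group mean, every one of the 30 fish was farthest for at least 2 genes and none for more than 17 (fish 9). The farthest fish was challenged for 106 genes and control for 94. These counts rest on the deviations that chose the genes and were not made for the other genes, so they are a description.

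**Figure D3:**
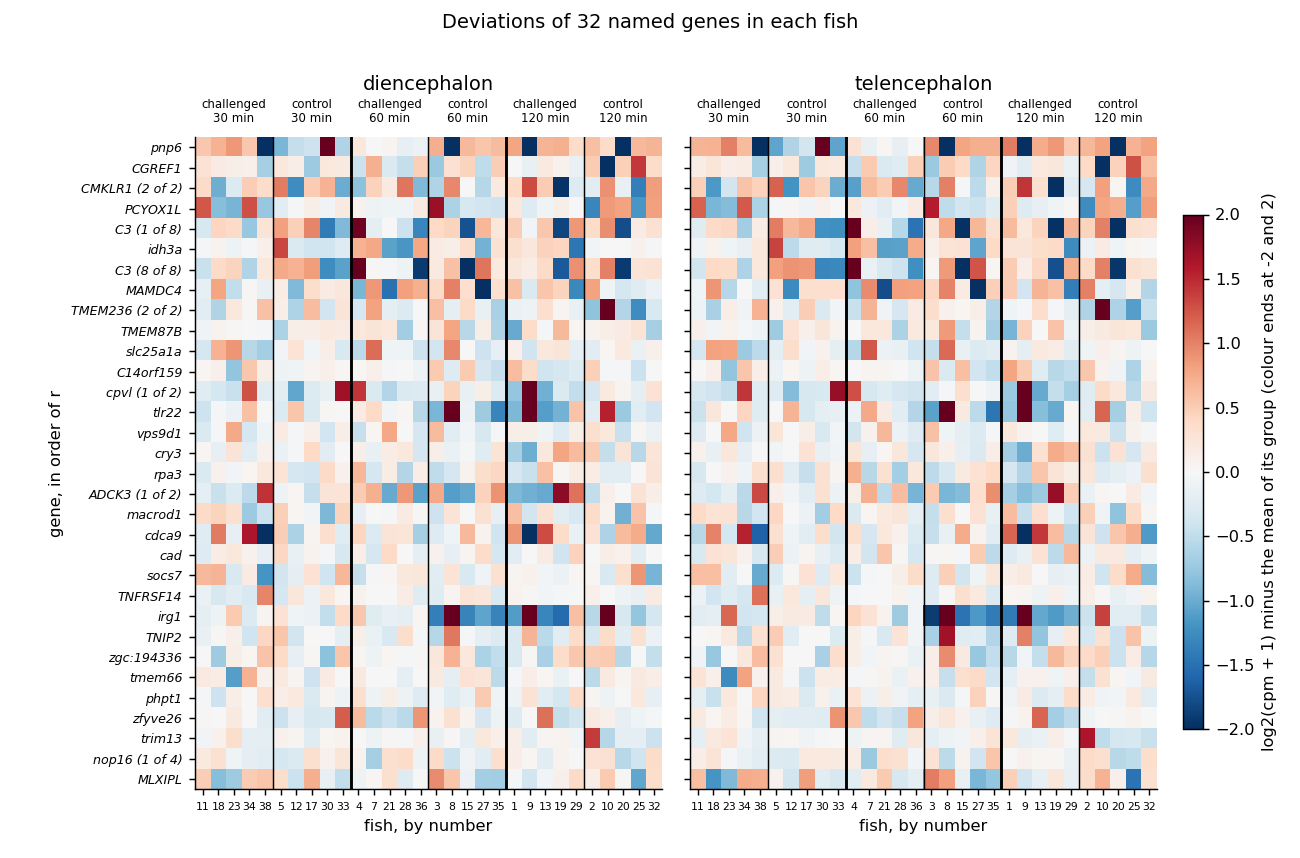
Deviation of log2(cpm + 1) from the group mean for the 32 named genes (rows, in order of r) in each of 30 fish (columns, grouped by time with challenged left of control), in diencephalon (left) and telencephalon (right); red is above and blue below the group mean, and the colours end at -2 and 2. The pattern of the left panel returns in the right panel, and which fish stand out changes from row to row, with fish 8 and 9 red for irg1 and tlr22.

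The 200 genes were seldom high and low in the same fish. Each r between 2 genes was computed on the mean over both regions of log2(cpm + 1), with group means removed. Over 19900 pairs of the 200 genes the median absolute r between fish was 0.147, against 0.179 over all pairs of the 13602 genes. An absolute r over 0.5 was seen in 1.55% of these pairs and in 4.90% of all pairs. Only 24 pairs, made of 37 genes, had an absolute r over 0.8, and in 3 of them both genes had a name: the C3 copies, irg1 with tlr22, and irg1 with TNIP2. A pair of neighbours moved in opposite directions: MAMDC4 and phpt1 lie 1193 bases apart on the reverse strand of linkage group XIV, at 11278595 to 11287976 and at 11289169 to 11291245. Their r between fish was -0.72. These correlations are over the same 30 fish and libraries and are given as a description.

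The sum of squares of log2(cpm + 1) over 60 libraries was divided into region, time, treatment within time, fish within group and what remained within a fish. In the median of the 200 genes the fish took 79.5%, treatment 8.00%, time 4.54%, region 1.09% and the remainder within a fish 1.39%. In the median of the 13402 other genes the fish took 44.9%, treatment 4.38%, time 2.25%, region 22.7% and the remainder 11.3%. A large share of fish was fixed by the choice of genes. The rule did not read the group means, which hold treatment, but it favoured genes with a wide spread within groups. The share of treatment within the variation between fish was 8.61% in the median of the 200 genes and 9.67% in the median of the others. Treatment holds 3 of 29 degrees of freedom between fish, or 10.3%, which is the mean share without any effect. The share is skewed and its median without an effect is lower, so these medians cannot be read as below that level. Treatment took more than the fish in 0 of the 200 genes and in 14 of the 13402 others. The choice of genes for a large share of fish bears on this count too, so nothing is read from it.

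**Figure D4:**
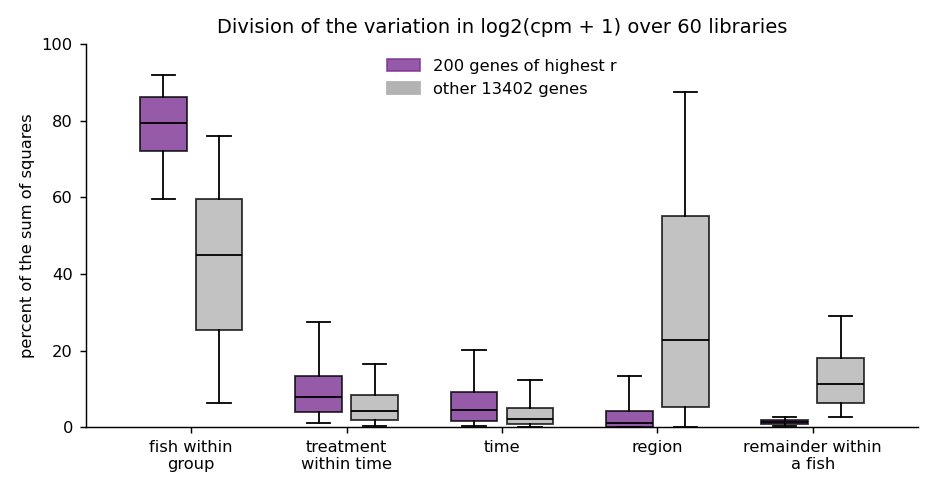
Percent of the sum of squares of log2(cpm + 1) over 60 libraries that fell to each source, for the 200 genes (purple) and the 13402 other genes (grey); boxes span the quartiles with the median as a line, and whiskers reach from the 5th to the 95th percentile. Fish within group took 79.5% in the median of the 200 genes and 44.9% in the others, region took 1.09% and 22.7%, and treatment took 8.00% and 4.38%.

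The range behind these shares was wide. The SD between fish within groups was 0.55 log2 units in the median of the 200 genes and 0.13 in the median of the others. In 182 of the 200 genes the highest fish exceeded the lowest more than 2-fold in both regions, against 2234 of the 13402 others (16.7%). The range was more than 10-fold in 51 of the 200 genes and in 136 of the others. The choice of genes favoured a wide spread between fish, so these counts are partly set by it. The median expression level was 31.4 cpm in the 200 genes and 34.1 cpm in the others.

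Whether a challenge changed these genes was tested over all genes with edgeR's quasi-likelihood test, separately in each region and on the counts of both regions of a fish added together. None of the 200 genes was called at an adjusted p under 0.1 in any of the 3 times in either region, nor in the summed counts, nor in a joint test of the 3 times. The same test called 0% of all genes in each of these 10 comparisons. The study itself, with another edgeR fit, called genes for treatment or for treatment over time at an FDR under 0.1. Positions of genes given here come from its lists of such genes, and 39 of the 200 genes had a position. For these 39 genes the calls of the study and of the test used here therefore differ. The share over all 13602 genes is not given here, so 39 is not read as many or few. Of the linkage groups that held any of the 200, VII, IX and XI had the most of the 13602 genes with a position. There 4 of 90, 3 of 75 and 1 of 67 such genes were among the 200. The 200 are 1.47% of the genes the rule could choose. At an unadjusted p under 0.05 in diencephalon, 12 of the 200 genes (6%) passed at 30 minutes, against 3.28% of all genes, and 12 (6%) passed at 60 minutes. At 60 minutes 10.5% of all genes passed. At 120 minutes 17 (8.5%) of the 200 passed, against 5.92% of all genes. The shares of the 200 genes lay above those of all genes at 30 and 120 minutes and below them at 60 minutes. In telencephalon 11 (5.5%), 14 (7%) and 18 (9%) passed at 30, 60 and 120 minutes, against 4.14%, 12.3% and 3.98% of all genes. The regions do not count as separate evidence here, since they come from the same fish. On the summed counts 11 (5.5%), 12 (6%) and 18 (9%) of the 200 genes passed at 30, 60 and 120 minutes, against 4.69%, 12% and 6.05% of all genes. In the joint test 17 (8.5%) passed, against 8.98% of all genes. By DESeq2 on the summed counts, 1 of the 200 genes was called at 60 minutes, where 0.966% of all genes were called. At 120 minutes 2 of the 200 were called, where 0.211% of all genes were. The likelihood ratio test called 1 at 120 minutes, where it called 2 of 17502 genes in all (0.0114%).

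Fold changes of the 200 genes were larger in size than those of all genes, as was their spread between fish. On the summed counts, the median absolute log2 fold change between challenged and control fish of the 200 genes was 0.22, 0.23 and 0.26 at 30, 60 and 120 minutes. Over all genes tested it was 0.07, 0.10 and 0.08 at these times. How much of this difference comes from the wider spread was not tested. In idh3a at 30 minutes, the control group held 4 of the 8 low fish. The challenged fish had 67.6, 70.4, 70.7, 75.9 and 78.1 cpm in diencephalon, and the control fish had 21.3, 21.3, 23.2, 23.6 and 72.9 cpm. The log2 fold change on the summed counts was 1.12 ± 0.39 (SE, n = 5 fish per group), with an adjusted p of 0.477 by edgeR.

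MAMDC4 had the smallest p of the 200 genes at 120 minutes in both regions. It encodes a membrane protein with MAM domains, known in mammals as endotubin of the early endosome. In diencephalon the 5 challenged fish had 7.52, 16.1, 27.5, 29.8 and 30.4 cpm, and the 5 control fish had 2.17, 2.42, 2.76, 2.82 and 6.11 cpm. In telencephalon the challenged fish had 9.58, 20.2, 38.1, 40.4 and 43.0 cpm, and the control fish had 1.76, 2.26, 2.66, 3.41 and 7.29 cpm. The groups did not overlap in either region. On the summed counts the log2 fold change was 2.98 ± 0.56 (SE, n = 5 fish per group), and edgeR's quasi-likelihood test, a model fitted over all genes, gave an adjusted p of 0.417, which is not a call. DESeq2 gave an adjusted p of 0.000767 and edgeR's likelihood ratio test one of 0.00228. Without fish 27, a control male of 60 minutes, edgeR's quasi-likelihood test gave 0.0567. That fit pools the spread within groups over all times, so fish of other times enter it. Over all alternatives and fish left out, the adjusted p lay between 0.000767 and 0.649.

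The lowest band of MAMDC4 held 6 fish, 5 control and 1 challenged, and most of them were controls of 120 minutes. Such low levels also occurred at 60 minutes. Fish 27 (control, 60 minutes) had 2.38 cpm in diencephalon. Fish 21 (challenged, 60 minutes) had 2.91 cpm in diencephalon and 2.39 cpm in telencephalon. The log2 fold change on the summed counts was 0.28 ± 0.51 at 30 minutes and -0.48 ± 0.52 at 60 minutes (SE, n = 5 fish per group), neither of them called. Its neighbour phpt1, a phosphatase that acts on phosphohistidine, had a fold change of the opposite sign at 120 minutes. The challenged fish had 32.7, 36.0, 38.9, 51.5 and 54.7 cpm of phpt1 in diencephalon, and the control fish had 52.3, 54.7, 59.3, 61.4 and 68.1 cpm, with a log2 fold change on the summed counts of -0.50 ± 0.16 (adjusted p = 0.431 by edgeR). The groups overlapped in both regions.

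MLXIPL was among the genes that DESeq2 called at 120 minutes. In diencephalon the challenged fish had 4.53, 5.95, 6.02, 6.76 and 8.45 cpm, and the control fish had 6.69, 15.1, 16.2, 19.0 and 21.7 cpm. In telencephalon the challenged fish had 2.83, 3.47, 3.48, 4.81 and 5.92 cpm, and the control fish had 3.41, 12.2, 14.1, 14.8 and 18.8 cpm. The groups overlapped through 1 control fish in each region. The log2 fold change on the summed counts was -1.49 ± 0.41 (SE, n = 5 fish per group), with an adjusted p of 0.417 by edgeR's quasi-likelihood test and 0.0666 by DESeq2.

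cdca9, a protein related to the borealin subunit of the chromosomal passenger complex of cell division, had the smallest p at 30 minutes. The challenged fish had 0.106, 3.47, 3.69, 9.76 and 15.2 cpm in diencephalon, and the control fish had 14.5, 19.4, 24.2, 29.5 and 32.9 cpm. In telencephalon the challenged fish had 0.561, 2.26, 2.74, 8.54 and 12.9 cpm, and the control fish had 15.0, 16.8, 18.4, 24.4 and 25.2 cpm. The groups overlapped in diencephalon by 1 challenged fish and were apart in telencephalon. The log2 fold change on the summed counts was -1.88 ± 0.63 (SE, n = 5 fish per group; adjusted p = 0.456 by edgeR). It was 0.79 ± 0.61 at 60 minutes and -0.47 ± 0.61 at 120 minutes.

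At 60 minutes irg1 had the smallest p of the named genes, and the difference rested on fish 8. The challenged fish had 1.96, 2.04, 2.14, 2.59 and 4.1 cpm in diencephalon, and the control fish had 2.14, 2.20, 2.20, 2.91 and 271 cpm. In telencephalon the challenged fish had 0.606, 1.52, 1.76, 2.21 and 2.53 cpm, and the control fish had 0.902, 1.55, 1.70, 2.20 and 434 cpm. The log2 fold change on the summed counts was -5.09 ± 1.44 (SE; adjusted p = 0.417 by edgeR) with fish 8, and 0.12 without it. In telencephalon ENSGACG00000000971, a gene without a name, had a slightly smaller p than irg1 at 60 minutes. Its log2 fold change in diencephalon was 3.02 ± 0.93 (SE, adjusted p = 0.549 by edgeR, not a call). DESeq2 called it at 60 minutes in telencephalon (3.35, adjusted p = 0.0535) and on the summed counts (3.16, adjusted p = 0.0645).

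**Figure D5:**
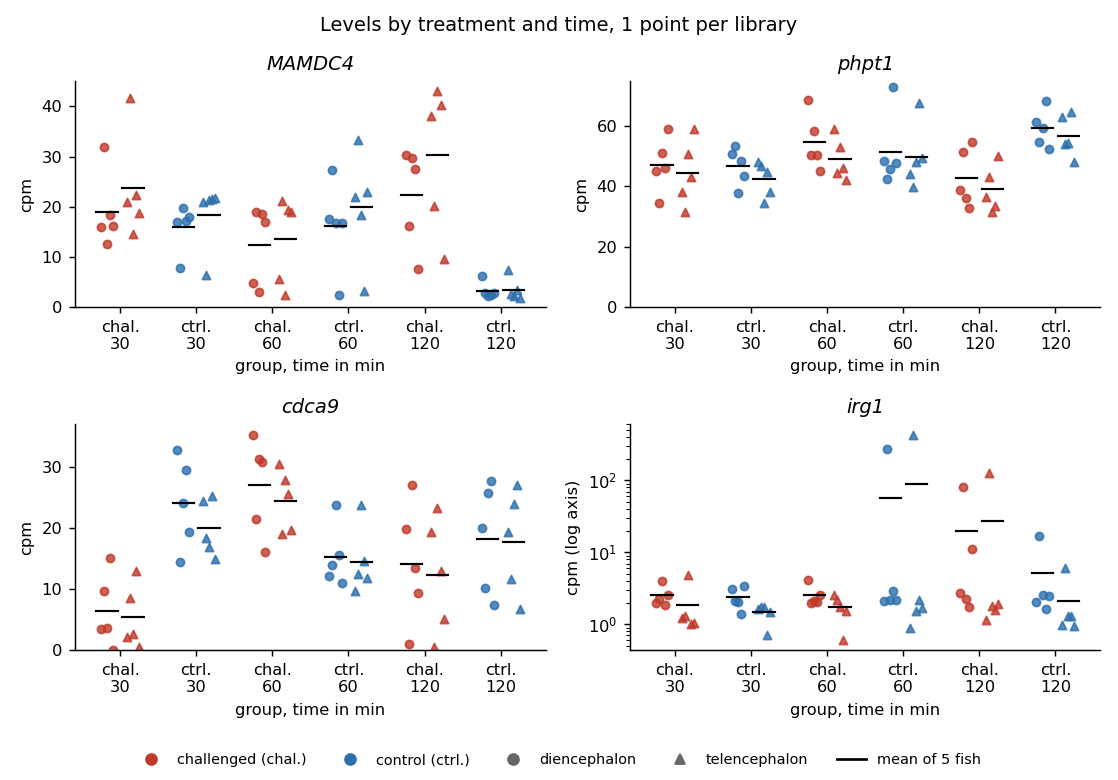
Levels of MAMDC4, phpt1, cdca9 and irg1 in cpm (log axis for irg1) by treatment and time, challenged (red) left of control (blue); circles are diencephalon and triangles telencephalon libraries of single fish, and black lines are means of 5 fish. The groups are apart in both regions at 120 minutes for MAMDC4 and in telencephalon only at 30 minutes for cdca9 (15.2 against 14.5 cpm at the nearest in diencephalon), while the control mean of irg1 at 60 minutes rests on fish 8.

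MAMDC4, cdca9 and irg1 were also compared between 5 challenged and 5 control fish by an exact two-sided permutation test, on log2(cpm + 1) averaged over both regions. On that average the groups were apart for MAMDC4 and cdca9 and overlapped for irg1. The mean was 4.59 ± 0.84 in challenged and 2.03 ± 0.52 in control fish for MAMDC4 at 120 minutes (SD, n = 5 each, exact p = 0.00794). For cdca9 at 30 minutes it was 2.33 ± 1.37 in challenged and 4.48 ± 0.35 in control fish (SD, n = 5 each, exact p = 0.00794). For irg1 at 60 minutes it was 1.6 ± 0.33 in challenged and 2.92 ± 3.08 in control fish (SD, n = 5 each, exact p = 0.603). A p of 0.00794 is the smallest that 5 fish against 5 can give. The 3 genes were picked out of the 200 for the smallest p in the model fits, so these exact p-values are too small as a test, no adjusted value is given, and nothing is read from them.

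Region means were removed before the genes were chosen, but the choice favoured a wide spread between fish, the error of a comparison without a fish block, and close agreement within a fish, the error of one with it. Counts and errors of the difference between regions are therefore partly set by the choice and are given as a description. By edgeR's quasi-likelihood test over 60 libraries, 38 of the 200 genes (19.0%) were called between diencephalon and telencephalon, against 72.9% of all genes. Of these 15 were higher in diencephalon, against 35.1% of all genes, and 23 were lower, against 37.8%. The median absolute log2 difference was 0.12 in the 200 genes and 0.21 over all genes. Each fish gave a library of either region. When fish entered the model as a replicate block, which takes the spread between fish out of the comparison, 157 of the 200 genes (78.5%) were called, against 82.4% of all genes.

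CGREF1 shows what the block changes. Its log2 difference of diencephalon over telencephalon was 0.18 ± 0.17 (SE) without the block and 0.18 ± 0.02 with it. The difference of MAMDC4 was -0.29 ± 0.22 without the block and -0.26 ± 0.04 with it. For idh3a it was 0.03 ± 0.16 without and 0.03 ± 0.02 with the block. Without the block it was -0.32 ± 0.09 for tmem66 and 0.37 ± 0.12 for socs7, a suppressor of cytokine signalling.

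The libraries fell into 8 index groups of at most 4 fish each. With the index means removed as well as the group means, the median r of the 200 genes was 0.970, the lowest was 0.846, and 1 gene was under 0.9. Of the 200 genes 178 remained among the first 200.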

How the data were processed

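Poly-A RNA of diencephalon and telencephalon of 30 males was sequenced by single-end reads. The authors trimmed reads with Trimmomatic, aligned them with TopHat2 (2.0.8) to the stickleback genome with repeats masked, and counted them per gene with HTSeq (0.6.1), leaving out reads in several genes. They deposited raw counts, used here, and a cpm table, not used. Versions are from the submitters' processing notes, which also name a mouse build (NCBIM37). Positions are those of the Ensembl annotation named in the study's methods. Names and positions came from supplementary tables of genes the study picked on these libraries.

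Cpm, r and sums of squares were computed in Python 3.11.15 with pandas 2.3.3 and numpy 2.4.6. Treatment was tested in R 4.3.3 with edgeR 4.0.16 by the quasi-likelihood test (TMM, at least 1 cpm in at least 2 libraries, time and treatment within time, Benjamini-Hochberg over 6 comparisons, or 3 on summed counts, threshold 0.1). Region was tested over 12 groups. The SE of an edgeR log2 fold change is its size over the square root of F. Scripts were tested on simulated data. Groups came from the labels. The block pairs libraries by the fish number in the labels, shared by the regions of 1 male.

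The members and gene lists were chosen with earlier results of these data known. By rule, members with a name were described if they were among the 10 of highest r or of largest SD between fish, in a gene list, of smallest p in a treatment comparison, at 3 counts or fewer in some fish and 5 cpm or more in others, or at the limit of 200. Alternatives were DESeq2 1.42.0, edgeR's likelihood ratio test, RLE, limma 3.58.1 voom with a block, other filters, pseudocounts and thresholds, the library index and leaving out each fish. Counting error was small beside the spread between fish at 17705327 to 55299804 counts per library.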

Additional observations from a re-analysis of the deposited data

Results flagged for a closer look

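In 3 of 12 groups of 5 libraries looked at for irg1, MAMDC4 and cdca9, 1 fish lay far from the others, beyond Dixon's critical value of 0.71. In groups not chosen for their spread chance passes it in about 1 of 20, but that rate does not apply here, because the genes were chosen on deviations of fish within groups. Of the 3 cases 2 are the same fish in both regions. Fish 8 (control, 60 minutes) had 271 cpm of irg1 in diencephalon and 434 cpm in telencephalon. Fish 2 (control, 120 minutes) had 6.11 cpm of MAMDC4 in diencephalon, above the other 4 control fish.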

How the results depend on the processing

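Of the 200 genes, 182 to 196 remained when each fish was left out in turn, 198 and 191 with pseudocounts of 0.5 and 5, 187 with TMM library sizes, 149 at a mean of 1 cpm, 145 by rank correlation, 189 when treatment means were kept and 178 without the 2 farthest fish of a gene. At a mean of 20 cpm 119 remained, which are all of the 200 that pass that filter. The median share of fish was 79.4% to 80.1% with other pseudocounts or TMM and 77.7% to 80.1% with each fish left out.

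No treatment call was made among the 200 genes with RLE, the other filters, a threshold of 0.05, adjustment within comparisons or the library index. At an unadjusted p under 0.05, 12, 12 and 17 passed in diencephalon, 11, 14 and 18 in telencephalon, 11, 12 and 18 on summed counts and 17 jointly. The likelihood ratio test called 1 at 120 minutes in diencephalon (3 of all genes), telencephalon (1 of all) and on summed counts (2 of all), and 3 jointly (61 of all). DESeq2 called 1 at 120 minutes in diencephalon (26 of all) and telencephalon (7 of all), 1 at 60 minutes in telencephalon (93 of all) and on summed counts (169 of all), 2 at 120 minutes on summed counts (37 of all) and 2 jointly (126 of all). With fish as a replicate block in limma voom, 1 was called jointly (7 of all) and 0 at single times. That fit assumes 1 correlation between regions for all genes (0.514), below the r of all 200 genes. With each fish left out, 0 to 1 were called at 120 minutes on summed counts (1 without fish 27, the 1 gene called in all) and 0 elsewhere. With each fish left out, the log2 fold change of irg1 at 60 minutes lay between -4.82 and 0.084 in diencephalon, -6.01 and 0.13 in telencephalon and -5.41 and 0.12 on summed counts, and it changed sign only without fish 8. The genes called in these alternatives were MAMDC4, MLXIPL, ENSGACG00000000971, irg1 and cdca9.

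Between regions 38 of the 200 genes were called (12787 of all genes), 157 with fish as a replicate block (14449 of all), 22 in control fish only (10997 of all) and 37 to 42 with each fish left out (12624 to 12836 of all). Without fish 9, 12 and 38, chosen after seeing the data, 38 were called (12828 of all), or 155 with the replicate block (14460 of all), no treatment call was made, and the median share of fish was 76.2%. With the other settings 32 to 43 were called. Fewer fish enter the fit of control fish, and the block takes out the spread between fish. The cause of the other changes was not tested. In the treatment fits the p-values rest on the spread between males within groups, pooled over all times and both treatments. With fish as a replicate block, the p-values between regions rest on the spread within a fish.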
